A study of Homo sapiens with 4 samples.

Results

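The transcripts described here are long noncoding RNAs and the noncoding host genes of small RNAs in EA.hy926 cells with added miR-187 or with a control miRNA (miR-NC). They were chosen by symbol and by level, so an entry annotated as protein-coding, such as SNHG32, could be among them. Among 62443 gene entries, 2374 carry the symbol of a small nucleolar RNA (snoRNA) host, a miRNA host or a numbered intergenic transcript (LINC), or are MALAT1, NEAT1, NORAD or OIP5-AS1. Of these, 1749 were listed at 0 in every library and 509 were above 0 but too low. The remaining 116 reached at least 1 FPKM (fragments mapped, corrected for the length of the transcript and the size of the library) in at least 2 of the 4 libraries, among 8196 such genes in all. They comprise 24 of 31 snoRNA hosts, 10 of 83 miRNA hosts, 78 of 2256 LINC transcripts and the 4 RNAs named above. The choice used the level and not the difference between groups, but a transcript that is high in 1 group only could pass through that group. This was so for 9 transcripts, 7 LINC transcripts and 2 miRNA hosts, which reached 1 FPKM only in both miR-NC libraries, whereas 0 did so only in both miR-187 libraries. Just inside the limit lay LINC01117, MIR23AHG and LINC01602, whose second highest values were 1.09, 1.09 and 1.11 FPKM. Just outside lay MIR3667HG, LINC01836 and LINC00513, with 0.939, 0.957 and 0.973 FPKM.

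EA.hy926 is a human hybrid line, a fusion of primary umbilical vein endothelium with the lung carcinoma line A549. It carried either miR-187 (2 libraries) or miR-NC (2 libraries), and all 4 are mRNA libraries from total RNA. The study describes these cells as transfected, and its general transfection protocol names synthetic miRNA mimics, a lipid reagent and a fixed time of collection. No source used here states the dose these cells received. No source states whether the replicates are separate cultures, and the p-values therefore reflect a spread that may be only technical. The strandedness of the libraries is not stated, so reads of a transcript and of its antisense partner cannot be told apart. In bulk RNA, fewer cells expressing a transcript and less of it per cell cannot be told apart either.

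A miRNA pairs with its targets mainly through its seed, bases 2 to 8. The strands of the 2 miRNAs listed by the study are printed here with the seed in capitals, since matches to the miR-187 seed were looked for in the long noncoding RNAs.
miR-187 mimic: uCGUGUCUuguguugcagccgg
miR-NC mimic: uUGUACUAcacaaaaguacug

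Small-RNA host genes are transcribed as long precursors. snoRNAs, which guide chemical modification of ribosomal RNA, are cut from the introns of their hosts, and the spliced exons are left as a separate RNA that is often degraded by nonsense-mediated decay during translation. miRNAs are cut by DROSHA and DICER1 from hairpins in the introns or exons of their hosts. The FPKM of a host therefore measures its spliced exons and not the snoRNA or miRNA it carries. LINC transcripts are numbered intergenic RNAs, most of them without an assigned function. MALAT1 resides in nuclear speckles, NEAT1 is the scaffold of paraspeckles, and NORAD is a cytoplasmic RNA.

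The libraries summed to 736702 to 763221 FPKM. The depth in reads is unknown. Of the tested genes, 85.2% were lower with miR-187 in the fitted mean, with a median log2 fold change of -0.39 (miR-187 over miR-NC, on log2(FPKM + 1)). Scaling each library by median-of-ratios factors, which assumes that the typical gene does not differ, brought this median to -0.01. Each class is therefore given under both scalings, and a gene is called where the limma adjusted p (Benjamini-Hochberg over all tested genes) is under 0.05. As deposited, 27.3% of tested genes were lower and 1.49% were higher. After median-of-ratios scaling 3.7% were lower and 4.67% were higher. PECAM1 was sought as an endothelial marker, but no gene entry carried that symbol. Of 11 other endothelial markers 8 reached 1 FPKM in at least 2 libraries, among them CDH5 and TIE1. CLDN5 was listed at 0, and VWF and KDR stayed below 0.2 FPKM. The sum of the 11 markers was 168 and 175 FPKM with miR-187, against 265 and 346 FPKM with miR-NC. Of 5 epithelial markers of the carcinoma parent 2, the keratins KRT8 and KRT18, were abundant in all libraries, whereas KRT19 and EPCAM stayed below 0.4 FPKM and CDH1 was listed at 0. The 3 blood markers and 4 smooth muscle or fibroblast markers stayed below 0.2 FPKM. The part of these marker levels in the results was not tested.

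With miR-187, 41 of the 116 transcripts fell (35.3%, beside 27.3% of all tested genes) and 2 rose as deposited. The median log2 fold change was -0.46, beside -0.39 over all tested genes. After median-of-ratios scaling 7 were lower and 4 were higher, beside 3.7% and 4.67% of all tested genes. Their median was then -0.12, beside -0.01 over all tested genes. All 7 were among the 41. Among the 107 transcripts that reached 1 FPKM in at least 1 library of each group, 35 were lower and 2 higher as deposited. Both libraries of one group lay below both of the other for 71 transcripts in the direction of a lower value with miR-187, and for 8 in the direction of a higher value. This was the case for 65.4% and 5.93% of all tested genes. The level filter fixed this separation for the 9 transcripts that reached 1 FPKM only in both miR-NC libraries. Among the 107 others, 62 were separate in the lower direction and 8 in the higher.

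**Figure D1:**
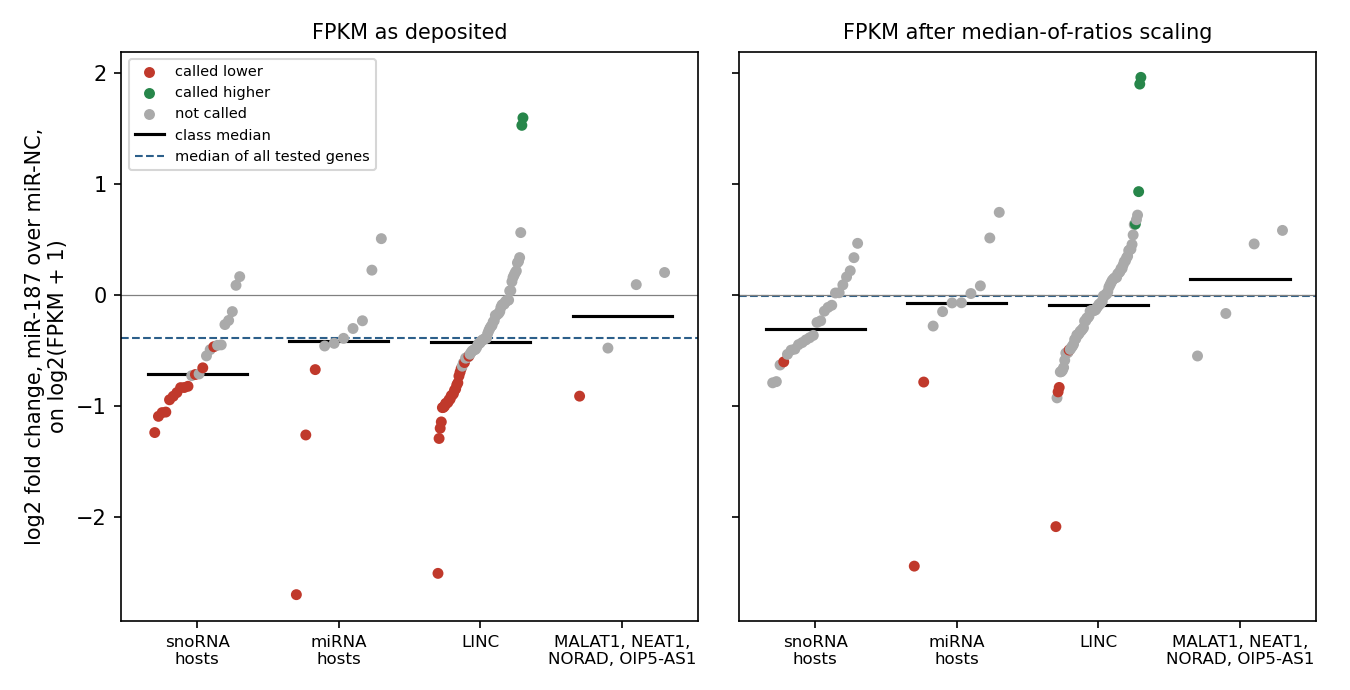
Log2 fold change (miR-187 over miR-NC, on log2(FPKM + 1)) of each of the 116 transcripts by class, as deposited (left panel) and after median-of-ratios scaling (right panel); points are transcripts, coloured by call, black bars are class medians and the dashed line is the median of all 8196 tested genes. The snoRNA hosts have the lowest class median in both panels, -0.71 and -0.31, and the dashed line moves from -0.39 in the left panel to -0.01 in the right panel.

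Among the 21 transcripts with a mean of at least 10 FPKM, 16 were lower (76.2%), beside 38.8% of the 2719 tested genes at that level. Among the 95 transcripts below it, 25 were lower (26.3%), beside 21.6% of 5477 genes. After median-of-ratios scaling 4 of the 21 remained lower and 1 was higher, beside 133 lower and 303 higher of the 2719 genes. Leaving out MALAT1, the transcripts together made up 1069 and 1076 FPKM with miR-187, against 1596 and 1880 FPKM with miR-NC. The snoRNA hosts contributed 479 and 484 FPKM with miR-187, against 650 and 811 FPKM with miR-NC. The miRNA hosts contributed 44.9 and 45.1 FPKM with miR-187, against 92.0 and 103 FPKM with miR-NC, and the LINC transcripts 540 and 542 FPKM with miR-187, against 848 and 957 FPKM with miR-NC. In each class both miR-187 libraries lay below both miR-NC libraries.

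Of the 24 snoRNA hosts, 13 fell with miR-187 (54.2%, beside 27.3% of all tested genes). Of the 10 hosts with a mean of at least 10 FPKM 8 fell (80%), beside 38.8% of the tested genes at that level. The groups did not overlap for 20 of the 24, all lower with miR-187, as for 65.4% of all tested genes. By limma 0 rose, also at an unadjusted p under 0.05 and after quantile normalization, while 17 were lower at an unadjusted p under 0.05. The median log2 fold change was -0.71 as deposited and -0.31 after median-of-ratios scaling. Under that scaling 1 host (SNHG32) remained lower and 0 were higher, beside 3.7% and 4.67% of all tested genes. At an unadjusted p under 0.05, 7 were lower and 0 higher with that scaling. Quantile normalization left 2 hosts lower (3.89% of all tested genes were lower and 3.57% higher under it). The annotation places at least 1 snoRNA or small Cajal body RNA gene inside 23 of the 24 hosts. Their levels spanned SNHG29 with a mean of 197 FPKM and EPB41L4A-AS1 with 1.02 FPKM.

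**Figure D2:**
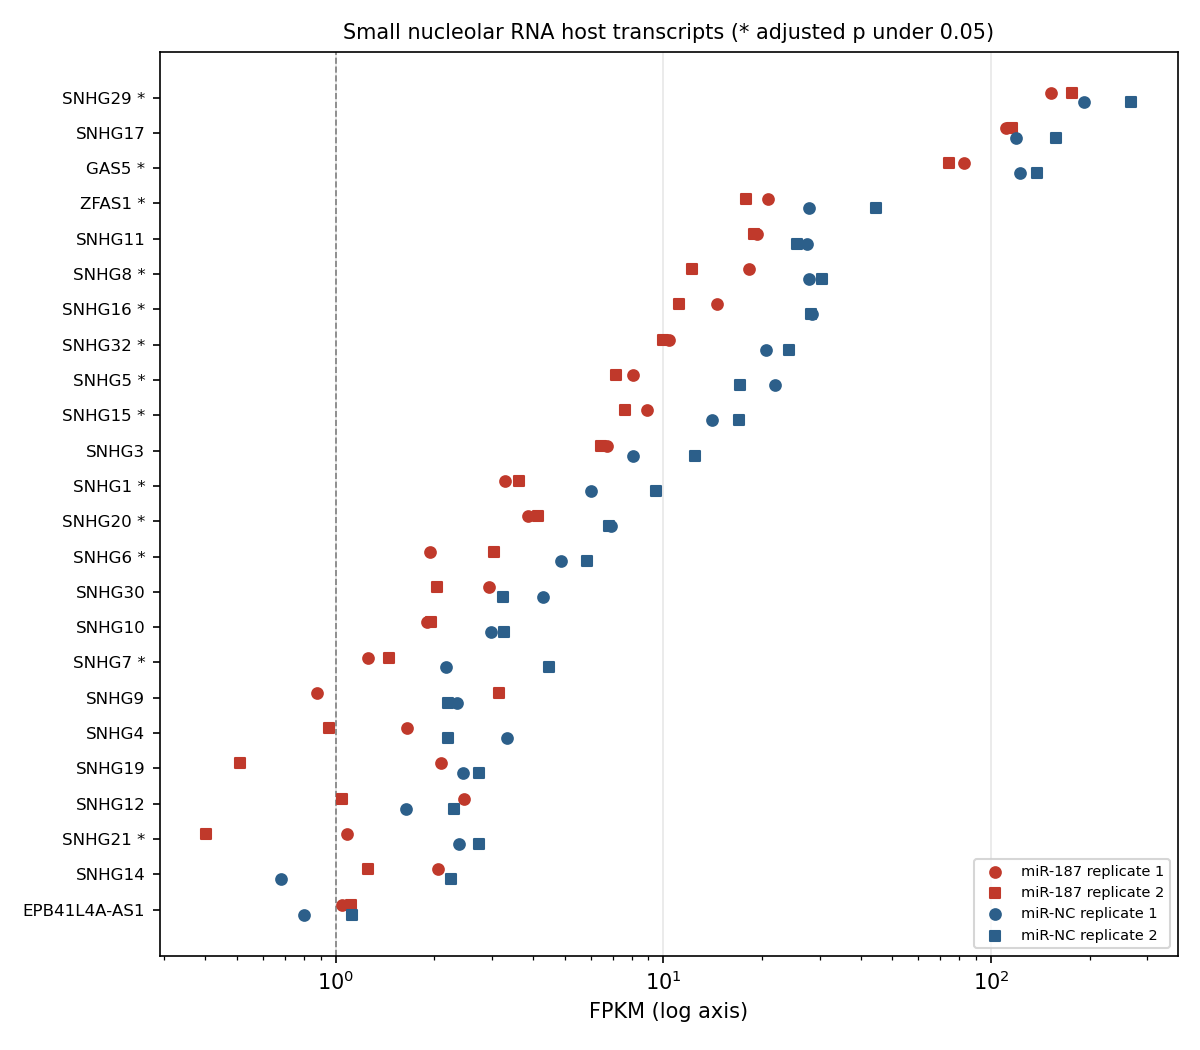
FPKM (log axis) of the 24 snoRNA hosts in each library, miR-187 in red and miR-NC in blue, ordered by mean level; circles are replicate 1, squares replicate 2, the dashed line is 1 FPKM and an asterisk marks the 13 hosts called lower as deposited. Separation of the colours is widest for SNHG5, SNHG16 and SNHG32 among the hosts above 10 FPKM, and the colours mix for SNHG9, SNHG12, SNHG14 and EPB41L4A-AS1.

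SNHG29, SNHG17 and GAS5 carried most of the class, 72.1% and 76.0% of its FPKM with miR-187, against 66.6% and 69.4% with miR-NC. SNHG29 had 152 and 177 FPKM with miR-187, against 192 and 268 FPKM with miR-NC. Its log2 fold change was -0.47 ± 0.15 (SE, limma adjusted p = 0.0331). Median-of-ratios scaling turned this to 0.021. SNHG17 had 111 and 116 FPKM with miR-187, against 119 and 157 FPKM with miR-NC, and was not called (-0.27 ± 0.14 as deposited, 0.22 after median-of-ratios scaling). The direction of both thus depended on the scaling. GAS5, named for its accumulation in growth-arrested cells and known to be stabilised when translation is blocked, had 82.6 and 74.7 FPKM with miR-187, against 122 and 138 FPKM with miR-NC. It fell by 0.72 on the log2 scale (SE 0.13, limma adjusted p = 0.00199), with groups that did not overlap. After median-of-ratios scaling GAS5 was not called (-0.23, limma adjusted p = 0.197).

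Some hosts at intermediate levels fell by more than GAS5, whereas SNHG11 (-0.45) and SNHG3 (-0.55) changed less and were not called. SNHG5 had 8.07 and 7.17 FPKM with miR-187, against 21.9 and 17.1 FPKM with miR-NC. Its log2 fold change of -1.24 ± 0.20 (SE, limma adjusted p = 0.00114) was the lowest of the class. Median-of-ratios scaling gave -0.79 (limma adjusted p = 0.0625). SNHG16 had 14.5 and 11.1 FPKM with miR-187, against 28.5 and 28.2 FPKM with miR-NC. SNHG16 fell by 1.09 on the log2 scale (SE 0.18, limma adjusted p = 0.0014). SNHG32 is a host in the major histocompatibility region that GENCODE 29 annotates as a protein-coding gene. SNHG32 had 10.4 and 9.95 FPKM with miR-187, against 20.6 and 24.1 FPKM with miR-NC. It fell by 1.06 (SE 0.18, limma adjusted p = 0.00168) and was the only snoRNA host that remained lower after median-of-ratios scaling (-0.60, limma adjusted p = 0.0301). GAS5, SNHG5, SNHG16 and SNHG32 were the 4 hosts called when any 1 library was left out.

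ZFAS1, a host that is antisense to the promoter region of ZNFX1, had 20.9 and 17.9 FPKM with miR-187, against 27.9 and 44.6 FPKM with miR-NC (log2 fold change -0.84 ± 0.21, limma adjusted p = 0.0115). ZNFX1, whose exons overlap those of ZFAS1 by 249 nt on the opposite strand, was also lower as deposited (-0.65, limma adjusted p = 0.036). Neither ZFAS1 nor ZNFX1 was called after median-of-ratios scaling (-0.36 and -0.21). SNHG8 had 18.3 and 12.2 FPKM with miR-187, against 27.7 and 30.6 FPKM with miR-NC (-0.91). SNHG15 had 8.89 and 7.62 FPKM with miR-187, against 14.1 and 17.0 FPKM with miR-NC (-0.83). The groups of each of these hosts were separate. SNHG1, SNHG6, SNHG7, SNHG20 and SNHG21 also fell, with means of 0.744 to 4.01 FPKM with miR-187, against 2.56 to 7.75 FPKM with miR-NC. Of these, SNHG1, SNHG6, SNHG7 and SNHG20 were each called in only 1 of the 4 fits that left out a library, and SNHG21 in 2.

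The other 11 snoRNA hosts were not called. SNHG11 had 19.3 and 19.0 FPKM with miR-187, against 27.4 and 25.6 FPKM with miR-NC, and missed the threshold as deposited (-0.45, limma adjusted p = 0.0514), but was called after rescaling to TPM. After median-of-ratios scaling its change was 0.018. SNHG3, which shares 105 nt of exon with RCC1 on the same strand, had a log2 fold change of -0.55, and RCC1 itself of -0.38, and neither was called. EPB41L4A-AS1 had 1.04 and 1.11 FPKM with miR-187, against 0.802 and 1.12 FPKM with miR-NC, and its partner EPB41L4A was listed at 0. Exons shared with another gene averaging at least 1 FPKM limit the counting of 16 of the 116 transcripts. Among the snoRNA hosts, the largest exon overlap on the same strand was 237 nt between SNHG20 and SEC14L1, 141 nt between SNHG14 and SNRPN and 176 nt between SNHG4 and MATR3. SNHG14 also shares up to 663 nt with the unnamed gene ENSG00000214265. SNHG4 also overlaps SIL1 on the opposite strand (118 nt). SNHG29, SNHG7, SNHG10 and SNHG12 overlap LRRC75A, DIPK1B, GLRX5 and TRNAU1AP on the opposite strand, by up to 452, 663, 280 and 8 nt, and the values of all these hosts are uncertain.

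Many snoRNA hosts and ribosomal protein genes begin with a terminal oligopyrimidine tract, a C followed by a run of C and T at the very start of the RNA, through which mTOR signalling controls their translation. The start was searched on the transcribed strand for a C followed by at least 4 bases that are each C or T, with the first base within 5 bases of the RefSeq start. Such a run was found in 10 of the 21 snoRNA hosts with a RefSeq promoter (47.6%), in 65.4% of 26 protein-coding snoRNA hosts, in 24.5% of 49 LINC transcripts and in 21.1% of all 27305 promoters. The runs differ among the 10 hosts. Those of SNHG12 and SNHG4, which were not called, are 12 and 13 nt long. Those of SNHG17 and SNHG8 start 3 bases after and 5 bases before the annotated first base. Printed as examples are the starts of SNHG5, SNHG32, ZFAS1 and SNHG16, hosts that fell, and of SNHG19, which was not called. The start of GAS5, which fell and has no run in this window, is printed as well. All are from RefSeq (GRCh38.p14), on the transcribed strand, with the run in capitals.
SNHG5, chr6:85678714-85678739, minus strand: ttcggtCTTTTacgtcggccttcgcg
SNHG32, chr6:31834910-31834935, plus strand: ttagttCTTTTTgcgaagtgggctcg
ZFAS1, chr20:49278636-49278661, plus strand: ttcgttCTTTCgcgtctgcggtgccc
SNHG16, chr17:76557758-76557783, plus strand: ggtctcgcgttCTTTTCgaggtcggc
SNHG19, chr16:2155339-2155364, minus strand: ccctgtCTTTTCggggtcgagtccga
GAS5, chr1:173869026-173869051, minus strand: gaattcagatgtgtttattttggagc
In SNHG5, SNHG32, ZFAS1 and SNHG19 the run starts at the annotated first base. Of the 10 hosts with a run 6 were called lower (median log2 fold change -0.83), and of the 11 without it 5 were (median -0.49). GAS5 is counted among the 11. Its GENCODE start, chr1:173868882, lies outside the window searched, so a run there would have been missed. These are descriptions of the annotated starts, which need not be the starts used in these cells.

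Genes that act with the snoRNA hosts were read in the same fit. Of 8 core proteins of snoRNA particles, FBL (the methyltransferase fibrillarin), SNU13 and NOP10 fell. This was 37.5%, beside 27.3% of all tested genes and 38.8% of those averaging at least 10 FPKM. None rose (0 also at an unadjusted p under 0.05 and after quantile normalization), and the median was -0.42 as deposited. After median-of-ratios scaling 0 were called in either direction, 0 were lower and 2 higher at an unadjusted p under 0.05, and the median was 0.051, a change of sign. Of 7 tested assembly factors RUVBL2 fell (14.3%, beside 27.3% of all tested genes), whereas NOLC1, a nucleolar chaperone of snoRNA particles, rose. NOLC1 had 13.9 and 12.7 FPKM with miR-187, against 4.57 and 5.17 FPKM with miR-NC (1.28 ± 0.21, limma adjusted p = 0.00121), and remained higher after median-of-ratios scaling (1.71). Of 10 tested factors of nonsense-mediated decay 5 fell (50%, beside 27.3% of all tested genes) and 1 rose. The helicase UPF1 had 0.441 and 0.245 FPKM with miR-187, against 1.55 and 1.32 FPKM with miR-NC, so that it passed the level filter only through the miR-NC libraries. EIF4A3 and SMG5 fell by 1.09 and 0.96 on the log2 scale. SMG6 and UPF3B, named after their values were seen, fell as well, and RBM8A rose by 0.70. None of the 5 remained lower after median-of-ratios scaling.

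Protein-coding genes that host snoRNAs, mostly genes of ribosomal proteins and translation factors, gave 15 lower and 2 higher of 34. The lower share was 44.1%, beside 27.3% of all tested genes and 38.8% of those averaging at least 10 FPKM. The median was -0.30. After median-of-ratios scaling 0 were lower (1 at an unadjusted p under 0.05, and 1 after quantile normalization) and 5 were higher, and the median was 0.19, a change of sign. EIF4A1, the initiation helicase, had 5853 and 5957 FPKM with miR-187, against 3362 and 2611 FPKM with miR-NC, a rise of 0.99 (limma adjusted p = 6.2e-05). RPL4, named after its value was seen, also rose (0.32). RPS2, RPL23A and RPSA fell by 0.90, 0.70 and 0.56 on the log2 scale as deposited. The difference between noncoding and protein-coding hosts was not tested. Among 6 tested regulators of terminal oligopyrimidine translation TSC1 and RHEB fell as deposited (33.3%, beside 27.3% of all tested genes). TSC1 passed the level filter only through the miR-NC libraries. After median-of-ratios scaling neither TSC1 nor RHEB was called. EIF4EBP1, named after its value was seen, was higher under that scaling (0.72, limma adjusted p = 0.0498).

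Of the 10 miRNA hosts, 3 fell with miR-187 (30%, beside 27.3% of all tested genes). None rose by limma (0 also at an unadjusted p under 0.05 and after quantile normalization). Their median log2 fold change was -0.41, beside -0.39 over all tested genes, and -0.07 after median-of-ratios scaling. All 10 have a miRNA gene inside, and RefSeq gave mature sequences for the miRNAs of each of the 10. Those of the 3 hosts that fell, and of MIR99AHG, which carries a cluster of the same makeup as MIR100HG, are printed to show which seeds the hosts share (seed in capitals).
miR-221-3p in MIR222HG: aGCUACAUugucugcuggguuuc
miR-222-3p in MIR222HG: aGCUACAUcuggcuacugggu
miR-4435 in MIR4435-2HG: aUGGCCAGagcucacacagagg
miR-100-5p in MIR100HG: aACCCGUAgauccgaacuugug
miR-99a-5p in MIR99AHG: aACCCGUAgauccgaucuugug
let-7a-5p in MIR100HG: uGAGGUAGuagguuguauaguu
let-7c-5p in MIR99AHG: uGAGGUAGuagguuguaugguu
miR-125b-5p in MIR100HG and MIR99AHG: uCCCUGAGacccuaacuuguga
miR-221-3p and miR-222-3p share the seed GCUACAU, and each 5p arm printed for MIR100HG has a partner with the same seed in MIR99AHG. None has the miR-187 seed. The mature miRNAs were not measured here.

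MIR222HG (GRCh38, chrX:45745211-45770274, minus strand), the precursor of miR-221 and miR-222, which are known to act on the cell cycle inhibitor CDKN1B and on the receptor gene KIT, showed the largest difference of the 116 transcripts on this scale. It had 0.180 and 0.169 FPKM with miR-187, against 5.18 and 8.47 FPKM with miR-NC. It fell by 2.70 on the log2 scale (SE 0.26, limma adjusted p = 4.3e-05) and by 2.45 after median-of-ratios scaling (limma adjusted p = 0.0062). It passed the level filter only through the miR-NC libraries, and was left untested in the 2 fits that omitted one of them.

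MIR4435-2HG had 27.7 and 25.97 FPKM with miR-187, against 60.8 and 71.2 FPKM with miR-NC. It fell by 1.26 (SE 0.15, limma adjusted p = 0.000179), by 0.79 after median-of-ratios scaling (limma adjusted p = 0.014), and in all 4 fits that left out a library. It is 99.2% identical over 2254 nt to CYTOR (also called LINC00152), a duplicated gene on the same chromosome, so fragments can be divided between them. CYTOR had 28.0 and 25.8 FPKM with miR-187, against 74.8 and 73.8 FPKM with miR-NC, a fall of 1.44 (limma adjusted p = 4.3e-05), so the sum of the pair was lower as well. MIR100HG had 2.996 and 3.29 FPKM with miR-187, against 5.78 and 5.43 FPKM with miR-NC. It was called as deposited (-0.67, limma adjusted p = 0.0451) and in 1 of the 4 fits without a library, but not after median-of-ratios scaling (-0.28).

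The other 7 miRNA hosts were not called. MIR99AHG had 2.23 and 5.02 FPKM with miR-187, against 4.88 and 4.03 FPKM with miR-NC. For MIR503HG the values were 2.37 and 2.00 FPKM with miR-187, against 3.21 and 0.188 FPKM with miR-NC. The annotation places miR-503 inside MIR503HG, and miR-424 upstream of its annotated start on the same strand. MIR34AHG, which lies over the p53 target miR-34a, had 1.69 and 1.27 FPKM with miR-187, against 0.264 and 2.54 FPKM with miR-NC. In these 3 hosts the groups overlapped, and the libraries of one group differed more than the groups did. MIR181A2HG, MIR22HG, MIR4458HG and MIR23AHG had lower values in both miR-187 libraries than in either miR-NC library. Their log2 fold changes were between -0.46 and -0.23 as deposited, though that of MIR23AHG was 0.014 after median-of-ratios scaling. Such a separation was found for 7 of the 10 miRNA hosts, beside 65.4% of all tested genes. MIR23AHG, like MIR222HG, passed the level filter only through the miR-NC libraries, which fixed the separation of both. Of 8 tested genes of miRNA precursor processing and export TARBP2, a partner of DICER1, fell (-0.66), beside 27.3% of all tested genes. As deposited 0 rose by limma (0 also at an unadjusted p under 0.05 and after quantile normalization), with a median of -0.16. After median-of-ratios scaling 0 were called, TARBP2 was at -0.19, and the median was 0.11, a change of sign. Under that scaling 0 were lower and 3 higher at an unadjusted p under 0.05.

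**Figure D3:**
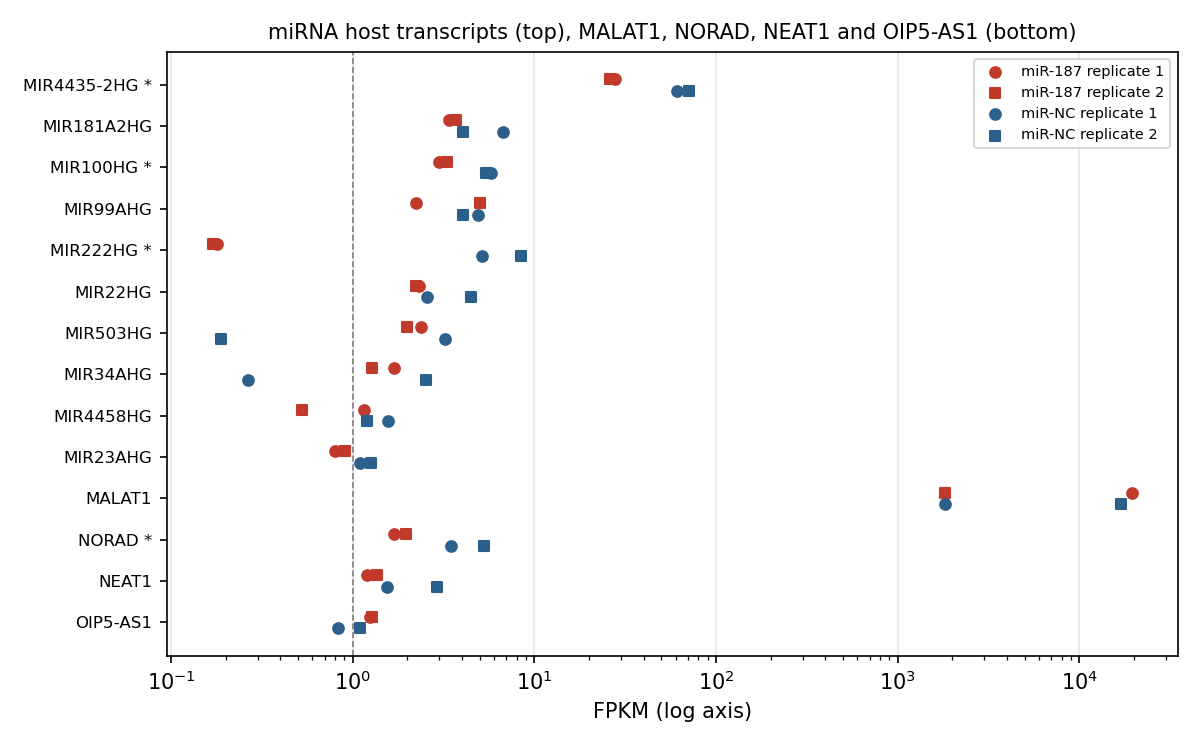
FPKM (log axis) of the 10 miRNA hosts and of MALAT1, NORAD, NEAT1 and OIP5-AS1 in each library, miR-187 in red and miR-NC in blue; circles are replicate 1, squares replicate 2, the dashed line is 1 FPKM and an asterisk marks a call as deposited. MIR222HG lies below 0.2 FPKM in both miR-187 libraries and above 5 FPKM in both miR-NC libraries, while MALAT1 splits 1 library of each group from the other.

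Of the 78 LINC transcripts, 24 fell (30.8%, beside 27.3% of all tested genes) and 2 rose as deposited (beside 1.49%). The median was -0.43, beside -0.39 over all tested genes. After median-of-ratios scaling 4 were lower and 4 higher (beside 3.7% and 4.67% of all tested genes), with a median of -0.09. LINC02802 and LINC01116 made up 51.0% and 53.1% of the FPKM of the class with miR-187, against 59.1% and 55.6% with miR-NC. Of the 78, 1 contains an annotated snoRNA or miRNA gene.

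**Figure D4:**
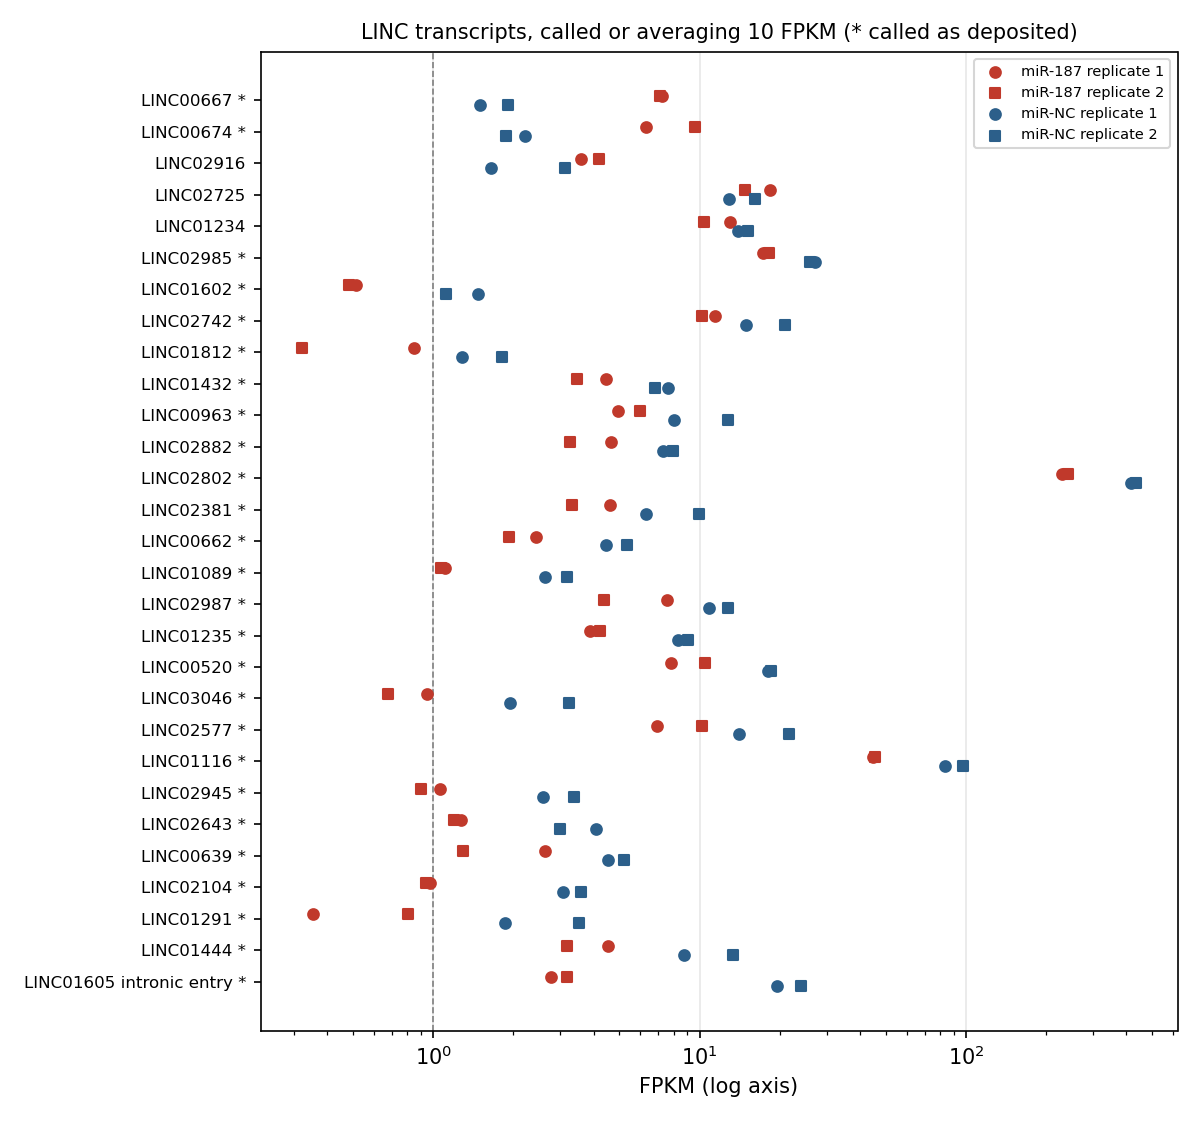
FPKM (log axis) in each library of the LINC transcripts that were called under either scaling or averaged at least 10 FPKM, ordered by log2 fold change from highest to lowest, miR-187 in red and miR-NC in blue; circles are replicate 1, squares replicate 2, the dashed line is 1 FPKM and an asterisk marks a call as deposited. LINC00667 and LINC00674 at the top are higher in both miR-187 libraries, and the intronic entry of LINC01605 at the bottom shows the widest gap.

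LINC02802 had 231 and 242 FPKM with miR-187, against 418 and 435 FPKM with miR-NC. It fell by 0.85 (SE 0.10, limma adjusted p = 0.000179), but missed the threshold after median-of-ratios scaling (-0.36, limma adjusted p = 0.125). It shares a stretch of 200 nt at 97% to 98% identity with LSP1P4 and another pseudogene, so its level is uncertain. LINC01116, which lies in the HOXD region, had 44.9 and 45.7 FPKM with miR-187, against 83.3 and 97.5 FPKM with miR-NC. It fell by 0.98 (SE 0.14, limma adjusted p = 0.000573) and remained lower after median-of-ratios scaling (-0.50, limma adjusted p = 0.0367). Its exons overlap those of LINC01117 by 222 nt on the opposite strand. LINC01117 had 1.46 and 1.09 FPKM with miR-187, against 0.925 and 1.02 FPKM with miR-NC, and was not called.

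The symbol LINC01605 covers 2 entries of the table that behaved differently. The entry for the intergenic transcript itself (ENSG00000253161) had 2.17 and 1.06 FPKM with miR-187, against 1.85 and 2.39 FPKM with miR-NC. The groups overlapped and it was not called (-0.28 ± 0.26). The other entry (ENSG00000253414), annotated as a sense intronic transcript with a longest form of 510 nt inside the LINC01605 gene, had 2.76 and 3.19 FPKM with miR-187, against 19.5 and 24.0 FPKM with miR-NC. It fell by 2.51 (SE 0.21, limma adjusted p = 2.0e-05), remained lower after median-of-ratios scaling (-2.09, limma adjusted p = 0.00369) and was called in all 4 fits without a library. The difference between the 2 entries was not tested.

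Both LINC transcripts that rose did so under either scaling and in all 4 fits without a library. LINC00667 had 7.22 and 7.08 FPKM with miR-187, against 1.49 and 1.90 FPKM with miR-NC, a ratio of means of 4.21 (log2 fold change 1.60 ± 0.24, limma adjusted p = 0.000823). Its exons overlap LINC00526 on the opposite strand by 773 nt, and LINC00526 averaged 0.632 FPKM. LINC00674, annotated as a transcribed unprocessed pseudogene, had 6.30 and 9.61 FPKM with miR-187, against 2.22 and 1.88 FPKM with miR-NC, a ratio of means of 3.88 (1.53 ± 0.26, limma adjusted p = 0.00156). After median-of-ratios scaling the changes were 1.96 and 1.90. LINC02725 and LINC02916 were called higher after that scaling (0.64 and 0.93, limma adjusted p = 0.0389 and 0.0451), but not as deposited with all 4 libraries. Without miR-NC replicate 2, LINC02916 was called higher as deposited as well (limma adjusted p = 0.0423). As deposited, LINC02725 had 18.4 and 14.8 FPKM with miR-187, against 12.9 and 16.2 FPKM with miR-NC, so the groups overlapped.

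LINC01444 and LINC02104 fell under both scalings. LINC01444 had 4.55 and 3.17 FPKM with miR-187, against 8.72 and 13.3 FPKM with miR-NC (-1.29 ± 0.25, limma adjusted p = 0.00375), and LINC02104 had 0.974 and 0.936 FPKM with miR-187, against 3.08 and 3.58 FPKM with miR-NC (-1.14 ± 0.23, limma adjusted p = 0.00433). LINC02104, like LINC03046, LINC01291, LINC01812 and LINC01602, passed the level filter only through the miR-NC libraries. LINC00520, LINC02577, LINC02742 and LINC02985, all averaging over 10 FPKM, fell by 0.94, 0.98, 0.66 and 0.55 as deposited, and LINC01234, the remaining one at that level, was not called and changed sign with the scaling (-0.30 as deposited, 0.15 after median-of-ratios scaling). LINC00639, LINC00662, LINC00963, LINC01089, LINC01235, LINC01432, LINC02381, LINC02643, LINC02882, LINC02945 and LINC02987 fell as deposited and were not called after median-of-ratios scaling. LINC01089 shares 898 nt of exon with RHOF on the same strand (mean 30.6 FPKM), and LINC02987 overlaps LINC00662 by 119 nt on the opposite strand, so these values are uncertain. The 52 LINC transcripts that were not called had log2 fold changes between -0.64 and 0.56. Of these, 41 were below 0.

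MALAT1 was the most abundant transcript of the set and differed more between replicates than between groups. It had 19375 and 1822 FPKM with miR-187, against 1826 and 16970 FPKM with miR-NC. It thus took 2.54% and 0.244% of the summed FPKM in the miR-187 libraries and 0.248% and 2.30% in the miR-NC libraries, with the high values in replicate 1 of miR-187 and replicate 2 of miR-NC. The log2 fold change was 0.09 ± 0.92 (SE, limma adjusted p = 0.945), and its direction turned with the library left out. Of all tested genes, 6 differed over 5-fold within both groups with high values in opposite-numbered libraries (a library at 0 counted as such), and among the 107 genes in the range of MALAT1 (means from 1000 FPKM) 3 differed over 2-fold within a group. Rescaling to TPM changed 1 call among the 49 other named transcripts, that of SNHG11, and leaving MALAT1 out before it left the same single change. Over all 116 transcripts, 46 were lower after rescaling to TPM, against 41 as deposited. More than 2-fold differences within a group were found for 29 of the 116 transcripts (25%), beside 10.5% of all tested genes.

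NORAD, which is needed for chromosome stability, had 1.69 and 1.97 FPKM with miR-187, against 3.49 and 5.31 FPKM with miR-NC. It fell as deposited (-0.91 ± 0.26, limma adjusted p = 0.0203) and in 1 of the 4 fits without a library, but was not called after median-of-ratios scaling (-0.55). KHDRBS1, which encodes an RNA-binding protein, fell as deposited (-0.72) but was not called after median-of-ratios scaling (-0.43). NEAT1 had 1.19 and 1.35 FPKM with miR-187, against 1.55 and 2.92 FPKM with miR-NC, and was not called (limma adjusted p = 0.165). Of 10 nuclear speckle proteins SRRM1, SON and SRSF6 fell (30%, beside 27.3% of all tested genes). None of these 3 was called after median-of-ratios scaling. OIP5-AS1, whose zebrafish counterpart is called Cyrano, had 1.24 and 1.27 FPKM with miR-187, against 0.826 and 1.10 FPKM with miR-NC. The groups did not overlap, but it was not called (0.20 ± 0.21). OIP5, the mitotic gene on the opposite strand with 470 nt of shared exon, fell by 0.72 as deposited (limma adjusted p = 0.037). It was not called after median-of-ratios scaling (-0.31).

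Matches to the miR-187 seed were searched in the longest GENCODE 29 transcript of each gene. The letters searched, on the transcript strand only, were AGACACG (bases 2 to 8), GACACGA (bases 2 to 7 followed by A) and AGACACGA, which contains both. A match was found in 7 of the 116 transcripts (6.03%), beside 5.79% of 328 other noncoding genes and 10.3% of 8131 tested genes, whose transcripts are longer (median 2914 nt, against 1680 nt for the 116). Of the 41 transcripts that fell 4 held a match, and of the other 75 it was 3. The matches in the 4 that fell are printed with 10 bases on either side (match in capitals).
SNHG16, chromosome 17: ggtcttccttGACACGAcactaacata
SNHG20, chromosome 17: aagtaagtggAGACACGtgctttggcc
LINC01089, chromosome 12: atccttcatcAGACACGAaggagaggcc
LINC00963, chromosome 9: ctgggactgcAGACACGcaccacagag
The other 3 transcripts with a match, LINC01524, MIR23AHG and SNHG12, had log2 fold changes of -0.35, -0.23 and -0.15 and were not called. A match is a description of the annotated sequence and not evidence of binding.

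Other transcripts named as antisense, divergent or intronic to a gene (suffix -AS, -DT or -IT) gave 41 lower and 1 higher of 164 (25% lower, beside 27.3% of all tested genes), with a median of -0.34. After median-of-ratios scaling 7 were lower and 6 higher, with a median of -0.04. TUBA1B-AS1 had 931 and 1043 FPKM with miR-187, against 2033 and 1924 FPKM with miR-NC (-1.004, limma adjusted p = 2.6e-05). It was not called after median-of-ratios scaling (-0.52, limma adjusted p = 0.138), and without strand information reads of TUBA1B could be counted there. THUMPD3-AS1, DUSP5-DT and EMC3-AS1 fell by 1.76, 1.35 and 1.498 on the log2 scale and remained called after that scaling (limma adjusted p = 0.0111, 0.0189 and 0.0274). ENTPD1-AS1 rose by 0.81, with 2.47 and 1.52 FPKM with miR-187, against 0.775 and 0.596 FPKM with miR-NC.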

How the data were processed

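mRNA libraries of EA.hy926 cells (2 with miR-187, 2 with miR-NC) were grouped and numbered by their titles. The authors deposited 1 FPKM value per gene and library, scaled by transcript length and mapped fragments. The submitters' processing notes name HISAT2, StringTie, DESeq2 and the build hg19, without versions. Whole reads could not be recovered from the low values, so depth is unknown and no counting interval is given. After 49 chromosome Y copies were left out, 62443 entries remained, of which 58611 matched a table of gene symbols (99.5% of tested genes).

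Genes that reached 1 FPKM in 2 or more libraries entered the test as log2(FPKM + 1) with limma 3.58.1 in R 4.3.3 (linear model on group, intensity trend, two-sided, Benjamini-Hochberg over all tested genes). The fit had 2 residual and 10.9 prior degrees of freedom and was tested on simulated data. Such fold changes understate the change of low genes. Fell and rose refer to an adjusted p under 0.05 as deposited. The transcripts and lists were chosen with earlier results of these data known. Named were transcripts that were called, averaged at least 10 FPKM or lay next to the level limit, up to 4 genes per companion list by adjusted p, and overlapping or near-identical partners. Other miRNA hosts, snoRNA hosts and transcripts named were chosen after their values were seen. Alternatives were TPM, median-of-ratios and quantile scaling, a pseudocount of 0.1, other filters, no trend, a replicate block and leaving out each library. TPM without MALAT1 was added after seeing the data. Items of 2 companion lists are not reported here.

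Gene coordinates, overlaps and transcripts came from GENCODE 29 (GRCh38), and promoters (for 82 of the 116 transcripts) and miRNAs from RefSeq (GRCh38.p14). No coordinate was converted from hg19. Similar transcripts were found with blastn 2.17.0 (at least 97% identity over at least 200 nt). The mimic sequences came from the study's supplementary tables. Python 3.11.15 with pandas 2.3.3, numpy 2.4.6 and matplotlib 3.10.9 was used.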

Additional observations from a re-analysis of the deposited data

How the results depend on the processing

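The count of transcripts called lower depended on the scaling and on single libraries. With median-of-ratios scaling 7 of the 116 transcripts were lower (1 snoRNA host and 4 LINC transcripts among them) and 4 higher, and 303 of all genes were lower and 383 higher. With quantile normalization 8 were lower (2 snoRNA hosts and 4 LINC transcripts among them), and 319 of all genes were lower and 293 higher. Without the filter 0 of 25001 genes were called by limma in either direction, the smallest adjusted p was 0.0588, and 4189 genes, 49 of them among the 116, were at an unadjusted p under 0.05. Without the intensity trend 48 of all genes were higher. Leaving out 1 library gave 16 to 44 transcripts lower, 6 to 15 snoRNA hosts, 8 to 24 LINC transcripts, and 822 to 2719 of all genes lower and 72 to 119 higher. Omitting replicate 1 of miR-187 left 23 of the 116 lower, and omitting its replicate 2 left 16. Omitting replicate 1 of miR-NC gave 44, and omitting its replicate 2 gave 17.

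Some single transcripts changed sign. After median-of-ratios scaling the log2 fold changes of LINC01234, MIR23AHG, SNHG29, SNHG17 and SNHG11 were 0.15, 0.014, 0.021, 0.22 and 0.018, and after quantile normalization those of LINC01234, MIR23AHG and SNHG17 were 0.14, 0.14 and 0.012. MALAT1 was at -1.51 without miR-NC replicate 1 and at -1.61 without miR-187 replicate 1, but at 1.80 without miR-187 replicate 2. In the fits without a miR-187 library, and in that with the replicate block, the estimated prior degrees of freedom were infinite, so a gene's own spread had no weight and the p-values of genes as variable as MALAT1 are not interpretable. The cause of these changes was not tested, apart from the scalings, which by construction remove a shift common to most genes.

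The replicate numbers did not pair the libraries (correlation of deviations from the group means, -0.06). With the replicate block 44 of the 116 transcripts were lower and 2 higher, and the block changed no call among the 50 named transcripts. Depth is unknown, so low transcripts cannot be given a counting error, and 2 libraries a group allow no exact test below the threshold.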
